A study of Homo sapiens with 12 samples.

Results

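The results concern 9 enzymes that make serine and pass its carbon through folate: PHGDH, PSAT1, PSPH, SHMT1, MTHFD1, SHMT2, MTHFD2, MTHFD1L and ALDH1L2. They were taken by gene symbol from the 58302 genes of the deposited table, and each symbol matched 1 row. All 9 were among the 17150 genes that passed the filter on low counts. The RNA came from U251 and U87, established human glioma cell lines, with 3 libraries in each of 4 groups. Artesunate, a derivative of the antimalarial artemisinin, was given for 24 h at 180 µM to U251 cells and at 24.08 µM to U87 cells, and the control groups of both lines received culture medium only. A solvent control is not stated, every group carries the label day 9, and the text on RNA extraction names artemisinin where the treatment labels name artesunate. Because each line had its own dose, line and dose cannot be told apart in any comparison between the lines. Nothing says whether the replicates were separate cultures, so p-values measure the spread between these libraries, which may be technical.

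Serine synthesis branches off glycolysis in the cytosol: PHGDH oxidises 3-phosphoglycerate, PSAT1 transfers an amino group to the product, and PSPH removes the phosphate to give serine. A hydroxymethyltransferase, SHMT1 in the cytosol or SHMT2 in mitochondria, then splits serine into glycine and a carbon unit bound to tetrahydrofolate. In mitochondria MTHFD2 oxidises that unit and MTHFD1L then releases it as formate, and ALDH1L2 can instead oxidise it to carbon dioxide with the formation of NADPH. In the cytosol the trifunctional MTHFD1 takes up formate for the synthesis of purines, thymidylate and methionine. PHGDH, PSAT1, SHMT2 and MTHFD2 are widely described as targets of ATF4, the transcription factor of the amino acid and integrated stress responses. In bulk RNA, fewer cells of a kind and less RNA per cell cannot be told apart.

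The libraries held 13631985 to 17314284 counts. Levels are given as CPM, the number of counts scaled to a common library size with TMM factors, for 1 gene across libraries. At these depths 3 counts corresponded to 0.168 to 0.219 CPM. Of 10 markers of glioma and astrocytes 9 were detected, with VIM at 3869 to 5891 CPM on average in the 4 groups, while AQP4 had 0 counts in all 12 libraries and S100B at most 11 in any. The lines differed in such markers: GFAP averaged 67.2 CPM in U251 and 1.01 CPM in U87 controls, and SOX2 averaged 249 CPM in U251 controls with 0 counts in every U87 library. OLIG2 went the other way, at 0.146 CPM in U251 and 3.16 CPM in U87 controls. The 4 leukocyte markers together reached 55.1 to 93.0 CPM in U87 controls and 22.7 to 54.3 CPM in U87 artesunate libraries, nearly all of it CD68, while AIF1 had 0 counts and PTPRC at most 4 in any library. The 3 neuron markers together reached 22.1 to 44.8 CPM over the 12 libraries. The 3 endothelial markers reached at most 2.99 CPM and the 3 epithelial markers at most 6.47 CPM. The dependence of counts on GC content shifted with treatment, in opposite directions in the lines. Per 10 points of GC content, genes deviated by 0.245 to 0.406 log2 CPM in U87 controls and by -0.628, -0.251 and -0.552 in U87 artesunate replicates 1, 2 and 3, against -0.043 to -0.002 in U251 controls and 0.089 to 0.202 in treated U251. A correction for GC content and length was therefore set beside the U87 values of each enzyme. It is fitted to the same libraries, and whether the shift came from the libraries or from the cells was not tested.

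To show the regulatory sequence upstream of the enzymes with the largest rise and the largest fall in U87, the stretch before the start of PSAT1 and of SHMT1 is printed below from the RefSeq promoter table, build GRCh38.p14, 5′ to 3′ on the strand of the gene. The PSAT1 stretch is chr9:78296875-78297124 on the plus strand. The SHMT1 stretch is chr17:18363564-18363800 on the minus strand. It holds 237 bases and ends 13 bases before the start, because only bases outside annotated exons are printed. Capitals mark the letters CCAAT, or ATTGG where they lie on the other strand.

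PSAT1: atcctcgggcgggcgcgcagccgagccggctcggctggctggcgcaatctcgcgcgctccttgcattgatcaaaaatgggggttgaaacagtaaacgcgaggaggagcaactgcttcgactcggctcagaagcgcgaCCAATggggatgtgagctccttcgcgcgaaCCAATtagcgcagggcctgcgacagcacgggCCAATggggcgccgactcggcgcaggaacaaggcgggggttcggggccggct

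SHMT1: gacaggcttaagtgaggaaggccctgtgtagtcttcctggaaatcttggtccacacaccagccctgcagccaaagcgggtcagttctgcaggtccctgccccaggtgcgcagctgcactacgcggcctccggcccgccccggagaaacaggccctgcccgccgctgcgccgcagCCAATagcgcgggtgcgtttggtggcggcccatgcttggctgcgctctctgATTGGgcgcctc

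PSAT1, which rose, held CCAAT at 3 places, with the first base at -113, -83 and -52 from its start, and SHMT1, which fell in U87, held it once on each strand. The motif was added after the windows had been seen, and 34.6% of the 35116 promoter windows of the table (250 bases before to 50 after the start, both strands searched) hold it. Windows were found for 6 of the 9 enzymes, 9 windows in total with 4 of them for MTHFD1L. All 6 of these genes held CCAAT, in 8 of the 9 windows. A gene with several windows has more places to hold a motif, so shares of genes and of windows are not alike.

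The other motifs searched on both strands were TGATGNAA, the core of the C/EBP-ATF response element, the cyclic AMP response element TGACGTCA, the E-box CACGTG, and TGACNNNGC, the core of the antioxidant response element. TGATGNAA was in the windows of 1 of the 6 genes, MTHFD1L, against 3.62% of all windows. It was found in 3 of the 9 windows, which share the same site. TGACGTCA was in none of the 6, against 1.85% of all windows. CACGTG was in 2 of the 6, MTHFD1 and MTHFD1L (4 of the 9 windows), against 7.26%, and TGACNNNGC was in 1 of the 6, MTHFD2 (1 of the 9 windows), against 13.3%. The matched stretches are given with 8 bases on each side and the match in capitals. They are shown because a gene called in neither line (MTHFD1L), one that fell (MTHFD1) and one that rose (MTHFD2) each held such letters.

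MTHFD1L, TGATGNAA, chr6:150866349-150866372, plus strand: gccggctcTGATGCAAtcgcgccg

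MTHFD1L, CACGTG, chr6:150866324-150866345, plus strand: cccggctcCACGTGcgcagccg

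MTHFD1, CACGTG, chr14:64388330-64388351, plus strand: tccctaagCACGTGggttgggt

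MTHFD2, TGACNNNGC on the other strand, chr2:74198613-74198637, plus strand: ccctcccgGCGCAGTCAccggcgcg

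A match describes these letters in these windows only.

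Under artesunate the serine synthesis genes rose in both lines and the cytosolic folate genes had negative fold changes in both. The mitochondrial folate genes had positive fold changes in both lines, except SHMT2 in U87, whose sign turned with the correction for GC content and length. In U251, 4 of the 9 enzymes were called higher (PHGDH, PSAT1, PSPH and MTHFD2) and 1 lower (MTHFD1), where called means a Benjamini-Hochberg adjusted p under 0.05 in edgeR's quasi-likelihood test over all genes tested. Of all genes tested in U251, 8.34% were called, 4.09% higher and 4.26% lower. In U87, 5 of the 9 were called higher (the same 4 and ALDH1L2) and 3 lower (SHMT1, MTHFD1 and SHMT2), beside 58.3% of all genes, 29.2% in each direction. The median log2 fold change of the 9 was 0.60 in U251 and 0.66 in U87, with 0.00 for all genes tested in each line. After the correction for GC content and length, 4 were higher and 2 lower in U251, and 6 were higher and 2 lower in U87. The shares of all genes given above belong to the uncorrected fit. None is given for the corrected fit, so the corrected counts cannot be read against a background. The corrected medians of the 9 were 0.54 in U251 and 0.71 in U87, with 0.00 for all genes. Treated and control libraries did not overlap for any of the 9 in either line, which was so for 36.8% of all genes in U251 and 62.4% in U87.

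**Figure D1:**
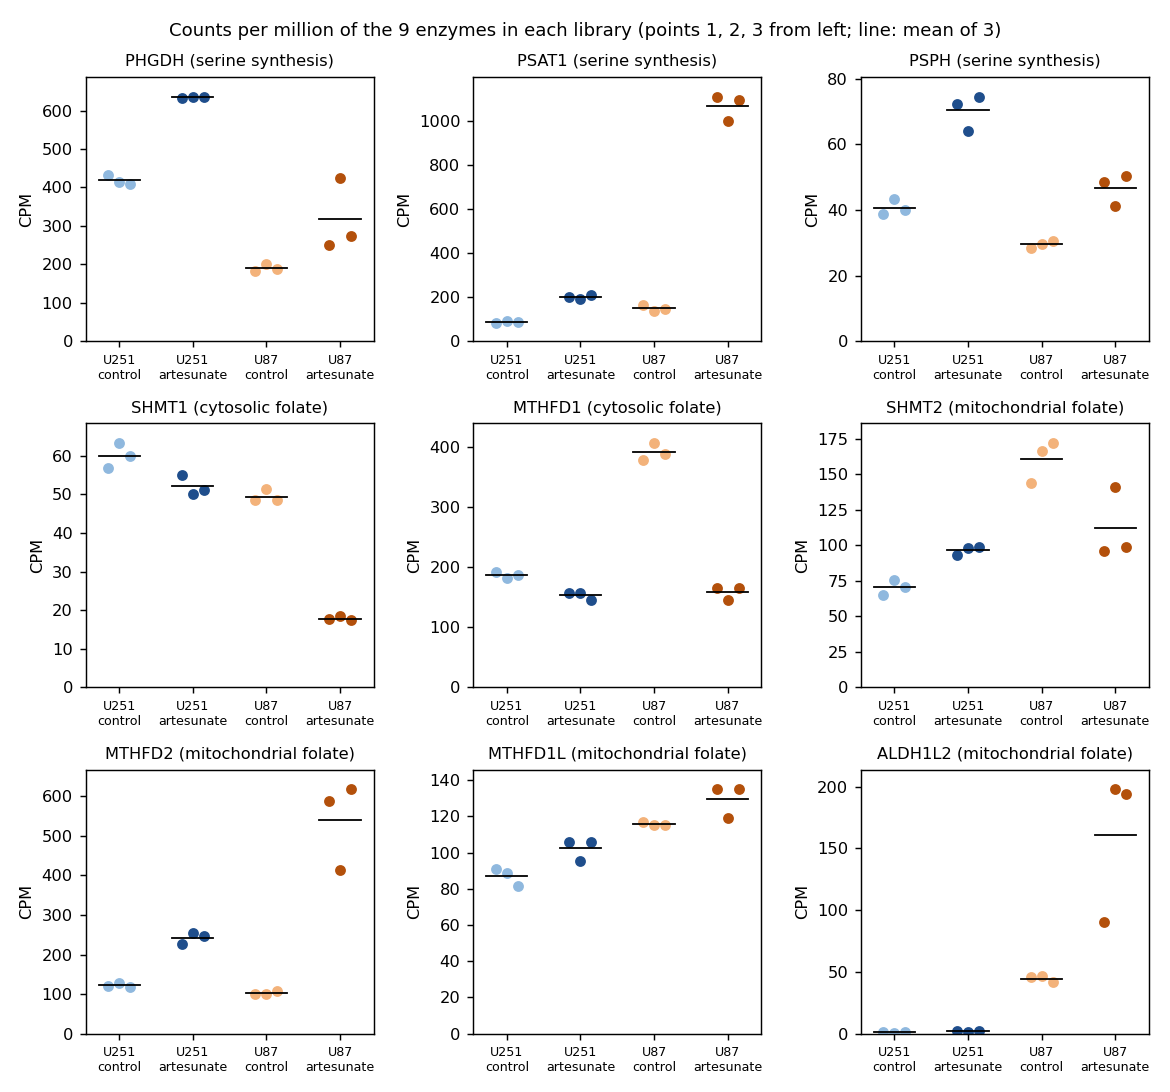
CPM (linear axis from 0) of each enzyme in the 12 libraries, as points in the order of replicates 1, 2 and 3, with the mean of each group as a line. PSAT1 and MTHFD2 reached their highest values in the U87 artesunate libraries, while SHMT1 had its lowest there, and U87 artesunate replicate 2 stood apart from the other two for PHGDH, SHMT2 and MTHFD2.

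PSAT1, the aminotransferase of the serine pathway, rose more than any other of the 9 in both lines. In U251 it was at 85.0, 92.1 and 85.6 CPM in controls and at 203, 193 and 209 CPM with artesunate. In U87 it went from 163, 139 and 145 CPM to 1110, 1000 and 1093 CPM. The 4 groups did not overlap, and the order from the lowest was U251 control, U87 control, U251 artesunate, U87 artesunate. The log2 fold change was 1.20 ± 0.08 (SE, adjusted p = 7.8e-06, edgeR) in U251 and 2.84 ± 0.08 (adjusted p = 3.6e-09) in U87, a 2.30-fold and a 7.17-fold rise. The difference between the effects, U251 minus U87, was -1.64 ± 0.11 (adjusted p = 2e-06, edgeR), and -1.04 (adjusted p = 6.3e-06) after correction for GC content and length. PSAT1 has a GC content of 42.3%, and its corrected log2 fold change in U87 was 2.39.

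PHGDH, the first enzyme of the pathway, was at 432, 414 and 410 CPM in U251 controls and at 632, 636 and 635 CPM in U251 artesunate libraries. In U87 the controls had 183, 201 and 188 CPM and the treated libraries 250.5, 425 and 275 CPM. Treated libraries were the higher ones in each line, and replicate 2 of treated U87 was far above the other two and within the range of the U251 controls. The log2 fold change was 0.60 ± 0.15 in U251 (adjusted p = 0.036, edgeR) and 0.73 ± 0.15 in U87 (adjusted p = 0.0016). Without U87 artesunate replicate 2 the U87 value was 0.45 (adjusted p = 0.0001), and with the correction for GC content and length it was 0.98 (adjusted p = 0.00017). The U251 call was lost without any single one of the 6 U251 libraries (adjusted p from 0.079 to 0.13) or of the 3 U87 control libraries (0.053 to 0.059), with total counts in place of TMM (0.055), and in limma on log2(FPKM + 0.1) (0.055) or on log2(FPKM + 1) without a filter (0.10). The effects in the lines differed by -0.13 ± 0.22 (adjusted p = 0.66, edgeR), a difference that was not detectable here.

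PSPH, the phosphatase that releases serine, rose by a similar amount in each line. The U251 libraries went from 38.7, 43.3 and 39.9 CPM to 72.2, 64.2 and 74.5 CPM with artesunate. The U87 libraries went from 28.4, 29.7 and 30.5 CPM to 48.5, 41.1 and 50.3 CPM. Treated U87 overlapped with untreated U251, and the other neighbours in the order of levels did not overlap. The log2 fold changes were 0.79 ± 0.10 (adjusted p = 0.00072, edgeR) in U251 and 0.66 ± 0.10 (adjusted p = 0.00014) in U87, with a difference of 0.13 ± 0.14 (adjusted p = 0.47) that did not pass the test. After correction for GC content and length the U87 value was 0.71.

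The enzymes of the pathway therefore changed in unequal proportion. On the deposited FPKM scale (fragments scaled by gene length and library size), the ratio of PSAT1 to PHGDH was 1.54 ± 0.0959 (SD, n = 3) in U251 controls and 2.33 ± 0.0944 in treated U251, and 5.74 ± 0.722 in U87 controls and 26.3 ± 8.02 in treated U87. The treated U87 libraries spread from 17.2 in replicate 2 to 32.5 in replicate 1, all above the U87 controls, which reached 6.51. These ratios carry no correction for GC content, which is 42.3% for PSAT1 and 52.3% for PHGDH. With the correction for GC content and length, the U87 log2 fold changes were 2.39 for PSAT1 and 0.98 for PHGDH. The level of the ratio also depends on the gene length used, and by counts alone it was 0.209 in U251 controls.

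**Figure D2:**
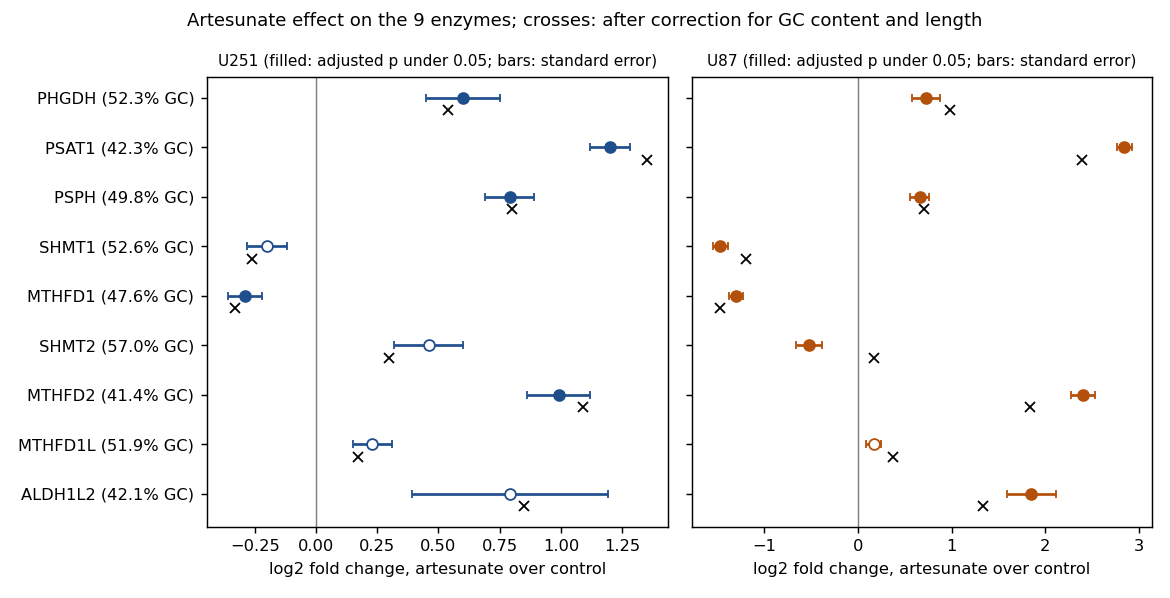
Log2 fold change of artesunate over control for each enzyme in U251 (left) and U87 (right), with the standard error as bars, filled points for an adjusted p under 0.05 and crosses for the value after correction for GC content and length. The axes differ in scale between the lines. SHMT2 in U87 is the 1 enzyme whose cross lies on the other side of 0 from its point (-0.52 and 0.17).

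SHMT1, the cytosolic hydroxymethyltransferase, was the enzyme with the largest fall in U87. It was at 48.5, 51.4 and 48.4 CPM in U87 controls and at 17.6, 18.5 and 17.4 CPM in treated U87. The U251 libraries had 56.8, 63.3 and 60.0 CPM without and 55.0, 50.1 and 51.2 CPM with artesunate, so treated U251 overlapped with untreated U87 but not with untreated U251. In U87 the log2 fold change was -1.47 ± 0.08 (adjusted p = 1.1e-07, edgeR), a 2.77-fold fall. After correction for GC content and length it was -1.19, and MTHFD1 then had the larger fall (-1.47). In U251 it was -0.20 ± 0.08 (adjusted p = 0.14), which passed the test only after correction for GC content and length (-0.26, adjusted p = 0.031). The effects differed by 1.27 ± 0.11 between the lines (adjusted p = 8.7e-06, edgeR). SHMT1 shares 196 exon bases with SMCR8 on the other strand, which held 201% as many counts as SHMT1 over the 12 libraries. The strandedness of the counting is not stated, so reads in the shared bases cannot be told apart. SMCR8 itself rose in U87, from 90.4 ± 7.43 to 122 ± 13.2 CPM (SD, n = 3), with a log2 fold change of 0.43 ± 0.10 (adjusted p = 0.0022, edgeR).

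MTHFD1, the cytosolic trifunctional enzyme, was at 379, 407 and 388 CPM in U87 controls and at 165, 146 and 166 CPM in treated U87. In U251 the values were 193, 182 and 188 CPM without and 157, 158 and 146 CPM with artesunate. Untreated U87 stood above all other groups, and the treated libraries of the 2 lines overlapped. The fall was 1.30 ± 0.07 on the log2 scale in U87 (adjusted p = 1.3e-07, edgeR; -1.47 after correction for GC content and length) and 0.29 ± 0.07 in U251 (adjusted p = 0.034), and the effects differed by 1.01 ± 0.10 (adjusted p = 1.8e-05). The call in U251 was lost without any single one of the 6 U251 libraries (adjusted p from 0.064 to 0.10), without U87 control replicate 3 (0.052) and with no filter on low counts (0.11). MTHFD1 shares 178 exon bases with ZBTB25 on the other strand, which held 9.36% as many counts. It also shares 756 exon bases with the antisense gene AL122035.2, which held 1.71% as many, and 101 with AL122035.1, which held 0.726%.

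SHMT2, the mitochondrial hydroxymethyltransferase, had effects of opposite sign in the lines. In U251 it was at 64.9, 75.4 and 70.8 CPM in controls and at 93.1, 98.1 and 98.5 CPM with artesunate. In U87 it was at 144, 166 and 172 CPM in controls and at 96.1, 141 and 98.7 CPM with artesunate. All treated U251 libraries were above their controls and all treated U87 libraries below theirs, though U87 artesunate replicate 2, at 141 CPM, came close to the lowest control at 144 CPM. The log2 fold change of 0.46 ± 0.14 in U251 did not pass the test (adjusted p = 0.064, edgeR), but did with DESeq2 (adjusted p = 0.026), in a fit of the 2 U251 groups alone (0.0078), and without U87 artesunate replicate 1 (0.048) or replicate 2 (0.0056). In U87 it fell by 0.52 ± 0.14 (adjusted p = 0.006), and the interaction was 0.98 ± 0.19 (adjusted p = 0.0014). With a GC content of 57.0%, the highest of the 9, SHMT2 lost both calls after the correction for GC content and length: the U87 value became 0.17 (adjusted p = 0.15) and the interaction 0.13 (adjusted p = 0.48).

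MTHFD2, the mitochondrial dehydrogenase and cyclohydrolase, rose in both lines. It went from 120, 129 and 119 CPM to 228, 255 and 246 CPM in U251 and from 99.2, 99.8 and 107 CPM to 587, 413 and 618 CPM in U87. No 2 groups overlapped, and treated U87 stood highest although its replicate 2 was lower than the other two. The log2 fold change was 0.99 ± 0.13 in U251 (adjusted p = 0.00092, edgeR) and 2.40 ± 0.13 in U87 (adjusted p = 1.1e-07). The interaction was -1.42 ± 0.18 (adjusted p = 7.3e-05). MTHFD2 has the lowest GC content of the 9, 41.4%, and after the correction its rise in U87 was 1.84 and the interaction -0.76 (adjusted p = 0.0021).

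MTHFD1L, the mitochondrial formate-releasing synthetase, passed the test in neither line. Its U251 libraries had 90.9, 88.8 and 81.3 CPM without and 106, 95.3 and 106 CPM with artesunate. Its U87 libraries had 117, 115 and 115 CPM without and 135, 119 and 135 CPM with artesunate. Treated libraries were above controls in both lines by a small margin, and no neighbouring groups overlapped. The log2 fold changes of 0.23 ± 0.08 (adjusted p = 0.10, edgeR) and 0.17 ± 0.08 (adjusted p = 0.098) did not pass the test. The U251 value passed with DESeq2 (adjusted p = 0.046). The U87 value passed without U87 artesunate replicate 2 (0.22, adjusted p = 0.031) and after correction for GC content and length (0.38, adjusted p = 0.0022).

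ALDH1L2, the mitochondrial enzyme that oxidises formyl-tetrahydrofolate, was far higher in U87 than in U251. It was at 45.6, 46.6 and 41.5 CPM in U87 controls and at 90.2, 198 and 194 CPM in treated U87, with replicate 1 lower than the other two and still above the controls. In U251 it had 21, 13 and 22 counts (1.39, 0.791 and 1.38 CPM) in controls and 33, 25 and 36 counts (2.37, 1.58 and 2.22 CPM) with artesunate. The rise in U87 was 1.85 ± 0.26 on the log2 scale (adjusted p = 7.2e-05, edgeR) and 1.34 (adjusted p = 0.0018) with the correction for GC content and length. In U251 the value was 0.79 ± 0.40 (adjusted p = 0.25), which passed only without U87 artesunate replicate 1 (adjusted p = 0.048). The interaction of -1.06 ± 0.48 did not pass (adjusted p = 0.087), but did with DESeq2 (0.047), with limma on FPKM under each of the 3 settings (0.0038 to 0.018) and without U87 artesunate replicate 1 (-1.35, adjusted p = 0.0022). After correction for GC content and length it was -0.49 (adjusted p = 0.55). ALDH1L2 shares 145 exon bases with C12orf45 on the other strand. C12orf45 averaged 13.4 CPM in U251 controls, more than ALDH1L2 there, so reads of ALDH1L2 in U251 are uncertain.

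Across all 9, the difference of the artesunate effect between the lines was called for 5: SHMT1, MTHFD1 and SHMT2 had the higher value in U251, PSAT1 and MTHFD2 the higher value in U87. Of all genes tested 49.4% were called in this comparison, 24.1% with the higher value in U251 and 25.3% with the higher value in U87. After correction for GC content and length 2 of the 9 were called with the higher value in U251 and 2 with the higher value in U87, SHMT2 being lost, and the genes called went from 8478 to 5132.

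Compared by compartment, the balance moved towards the mitochondrial enzymes with artesunate in both lines, MTHFD2 having the largest rise of them. The 2 cytosolic folate enzymes had a median log2 fold change of -0.25 in U251 and -1.39 in U87, the 4 mitochondrial ones 0.62 and 1.01, and the 3 serine synthesis enzymes 0.79 and 0.73, with 0.00 over all genes. In U251 the mitochondrial median lay between SHMT2 (0.46) and ALDH1L2 (0.79), neither of them called. ALDH1L2 had only 13 to 36 counts a library there. After the correction for GC content and length the medians in U87 were -1.33, 0.86 and 0.98. On the FPKM scale the ratio of SHMT2 to SHMT1 was 0.677, 0.707 and 0.700 in U251 controls and 1.00, 1.16 and 1.14 in treated U251. In U87 it was 1.76, 1.92 and 2.11 in controls and 3.24, 4.52 and 3.37 in treated libraries. Each treated library was above all controls of its line, and the mean was 1.59 times as high in U251 and 1.92 times as high in U87. In U251 SHMT2 had the positive and SHMT1 the negative fold change, neither past the test, whereas in U87 both fell and SHMT1 fell more, though the fall of SHMT2 was lost with the correction (0.17, adjusted p = 0.15).

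The ratio of MTHFD2 to MTHFD1 changed further. It was 0.784, 0.898 and 0.797 in U251 controls and 1.83, 2.04 and 2.12 in treated U251, and 0.330, 0.310 and 0.349 in U87 controls and 4.51, 3.57 and 4.69 in treated U87. No groups overlapped, and U87 went from the lowest to the highest group, a 12.9-fold change of the mean against 2.42-fold in U251. The mitochondrial enzymes SHMT2, MTHFD2 and MTHFD1L together made up 57.5 ± 1.15% (SD, n = 3) of the summed FPKM of these 3 with SHMT1 and MTHFD1 in U251 controls and 71.8 ± 1.21% in treated U251. In U87 the share was 48.9 ± 1.04% in controls and 84.3 ± 1.20% with artesunate. Mean FPKM of MTHFD2 went from 13 to 25.2 in U251 and from 11 to 55.3 in U87. SHMT2 went from 3.95 to 5.3 and from 9.2 to 6.1, and MTHFD1L from 12.1 to 13.9 and from 16.3 to 17.4. In U87 MTHFD1 fell from 33.5 to 12.9. The share thus mostly followed MTHFD2 and, in U87, MTHFD1, and the FPKM carry no correction for GC content. No test was made of a sum or ratio over chosen genes.

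**Figure D3:**
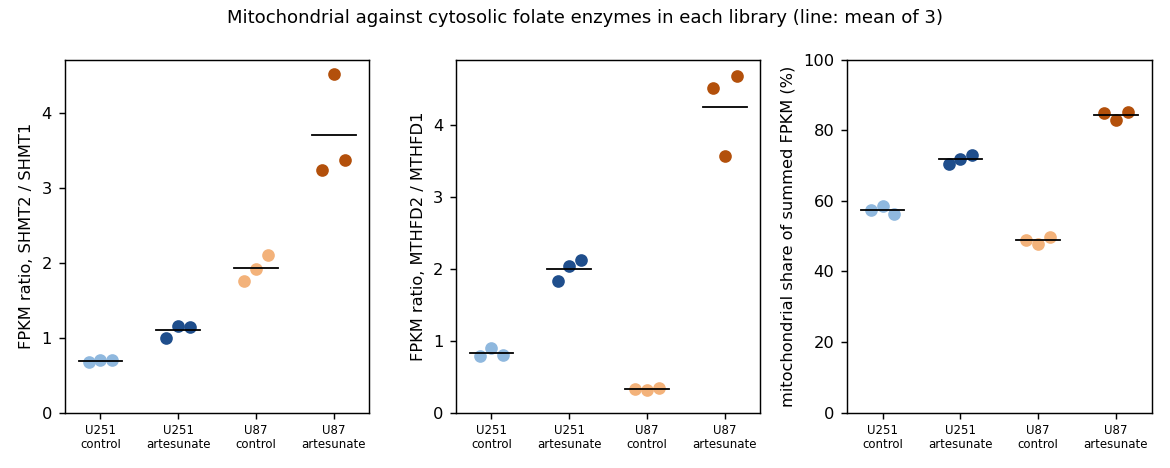
FPKM ratio of SHMT2 to SHMT1 (left), of MTHFD2 to MTHFD1 (middle) and the share of SHMT2, MTHFD2 and MTHFD1L in the summed FPKM of the 5 folate enzymes (right), 1 point per library and a line for the mean of each group. Every treated library lies above the controls of its line in each panel.

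The level of a ratio between genes depends on the gene length used, which its change with artesunate does not. The gene length in the deposited FPKM was compared for the 10018 genes with at least 50 counts in every library. In 91.53% of them it equalled the sum of all distinct annotated exons of the gene, counting overlapping exons more than once. In the median gene of these it was 2.186 times the longest transcript. For SHMT2 the length came to 17952 bases, more than the gene spans. The ratio of SHMT2 to SHMT1 in U251 controls was thus 0.695 by FPKM, 1.17 by counts alone, 1.76 per kilobase of merged exons and 0.945 per kilobase of the longest transcript, so which of the 2 was the more abundant in untreated U251 was not settled. In treated U251 SHMT2 was on average the more abundant on all 4 scales, from 1.10 to 2.79. In U87 controls SHMT2 was the more abundant on all 4 scales, from 1.93 to 4.90. PSAT1 had the highest FPKM of the 9 in every group (33.2 ± 1.49 in U251 controls and 391 ± 11.9 in treated U87), but per kilobase of the longest transcript PHGDH was higher than PSAT1 in both U251 groups (132 against 40.0 CPM per kilobase in controls).

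Between the untreated lines 8 of the 9 enzymes differed: PHGDH, PSPH and SHMT1 were higher in U251, and PSAT1, MTHFD1, SHMT2, MTHFD1L and ALDH1L2 higher in U87. Of all genes 64.8% were called in this comparison, 32.5% higher and 32.3% lower in U251. The untreated lines did not overlap for any of the 9, as for 73.6% of all genes. ALDH1L2 showed the largest difference, with a log2 value of -5.23 ± 0.34 for U251 against U87 (adjusted p = 7.3e-08, edgeR). PHGDH was 2.19-fold higher in U251, at 1.13 ± 0.16 (adjusted p = 4.8e-05). SHMT2 and MTHFD1 were lower there, at -1.19 ± 0.14 (adjusted p = 1.2e-05) and -1.06 ± 0.07 (adjusted p = 1.3e-07). PSAT1 was at -0.76 ± 0.08 (adjusted p = 4.3e-06), PSPH at 0.46 ± 0.10 (adjusted p = 0.0015), MTHFD1L at -0.41 ± 0.08 (adjusted p = 0.00086) and SHMT1 at 0.28 ± 0.08 (adjusted p = 0.008), the last of which was lost with no filter on low counts (0.057) and was 0.47 after correction for GC content and length. MTHFD2, at 0.26 ± 0.13, did not pass (adjusted p = 0.087), but did without U87 artesunate replicate 2 (0.0049) and in a fit of the 2 control groups alone (0.011), and its sign turned with the correction for GC content and length (-0.03).

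In treated cells PHGDH, PSPH and SHMT1 were again higher in U251, and PSAT1, MTHFD2, MTHFD1L and ALDH1L2 higher in U87, beside 72.2% of all genes called, 36.3% higher and 35.9% lower in U251. The treated lines overlapped for MTHFD1 and SHMT2 alone, and 73.6% of all genes did not overlap. These comparisons share libraries with those of artesunate against control. SHMT1 was 2.93-fold higher in treated U251, with a log2 value of 1.55 ± 0.08 (adjusted p = 1.2e-08, edgeR), and PSAT1 was at -2.40 ± 0.08 (adjusted p = 3.3e-10). MTHFD1, at -0.05 ± 0.07 (adjusted p = 0.57), and SHMT2, at -0.21 ± 0.14 (adjusted p = 0.18), did not pass the test in treated cells, though SHMT2 did after correction for GC content and length (-0.81, adjusted p = 9.1e-06).

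A list of 38 other genes of serine and folate metabolism was read from the same fit. In U251, 2 of the 33 that could be tested were higher and 2 lower, with a median of -0.11, and in U87 9 were higher and 9 lower, with a median of 0.03 (6 and 8 after the correction for GC content and length). Over all genes tested 8.34% were called in U251 and 58.3% in U87 without the correction. No share is given beside the corrected counts. The 2 called higher in U251 were the neutral amino acid transporters SLC1A5, at 236 ± 25.7 CPM in controls and 558 ± 28.5 CPM with artesunate (SD, n = 3), and SLC1A4, at 44.4 ± 3.45 and 87.5 ± 3.79 CPM. SLC1A5 rose by 1.24 ± 0.23 (adjusted p = 0.0074, edgeR), and SLC1A4 by 0.98 ± 0.25 in U251 (adjusted p = 0.033) and 2.17 ± 0.26 in U87 (adjusted p = 2.2e-05). The SLC1A4 call in U251 was lost without any single one of the 6 U251 libraries (adjusted p from 0.064 to 0.12) and without U87 control replicate 3 (0.05), and in limma on log2(FPKM + 1) without a filter (0.094). In U87 SLC1A5 was at 0.24 ± 0.23 (adjusted p = 0.38), and at 1.35 (adjusted p = 5.4e-06) after correction for GC content and length. Without U87 artesunate replicate 2 it was -0.19 (adjusted p = 0.11). The 2 called lower in U251 were DHFR2, at -0.67 ± 0.18 (adjusted p = 0.043), and SRR, serine racemase, at -0.44 ± 0.12 (adjusted p = 0.044), which was named after its value was seen. The SRR call was lost without any single one of the 6 U251 libraries (adjusted p from 0.092 to 0.14) or of the 3 U87 control libraries (0.053 to 0.064), with no filter on low counts (0.14) and after correction for GC content and length (-0.36, adjusted p = 0.076). The DHFR2 call was lost without any single one of the 6 U251 libraries (adjusted p from 0.079 to 0.14) or of the 3 U87 control libraries (0.053 to 0.063), with no filter on low counts (0.10) and in limma on log2(FPKM + 1) without a filter (0.085).

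MTHFD2L, a mitochondrial relative of MTHFD2, rose in U87, from 15.7 ± 1.87 to 51.7 ± 7.88 CPM. Its log2 fold change was 1.72 ± 0.16 there (adjusted p = 3.5e-06, edgeR) and -0.11 ± 0.15 in U251 (adjusted p = 0.72), with an interaction of -1.83 ± 0.22 (adjusted p = 4.8e-05). The correction brought the U87 value to 0.97 (adjusted p = 2.6e-05). ALDH1L1, the cytosolic counterpart of ALDH1L2, was too low to test, with 9 and 20 counts over the 3 libraries of untreated and treated U251 and 0 counts in all U87 libraries, which allows up to 3 counts a library.

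Among genes that bring folate in or use its carbon, SLC19A1, the reduced folate carrier, fell by 2.73 ± 0.30 in U87 (adjusted p = 1.3e-05, edgeR), from 37.3 ± 2.78 to 5.60 ± 3.17 CPM, and PFAS, an enzyme of purine synthesis, by 2.18 ± 0.19 (adjusted p = 2.7e-06). After correction these values were -1.33 (adjusted p = 0.00013) and -1.39 (adjusted p = 3.8e-05). TYMS, thymidylate synthase, fell in U87 by 1.00 ± 0.18 (adjusted p = 0.00048), while its value of -0.46 ± 0.18 in U251 did not pass the test (adjusted p = 0.14), but did without U251 artesunate replicate 2 (-0.67, adjusted p = 0.045). SLC25A32, the mitochondrial folate carrier, was at 0.40 ± 0.12 in U87 (adjusted p = 0.012) and at -0.18 after correction (adjusted p = 0.16). SFXN1, the mitochondrial serine carrier, at -0.02 ± 0.08 in U251 (adjusted p = 0.93, edgeR) and -0.04 ± 0.08 in U87 (adjusted p = 0.68), did not pass in either line, though it did in U87 after correction (-0.41, adjusted p = 0.00042).

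**Figure D4:**
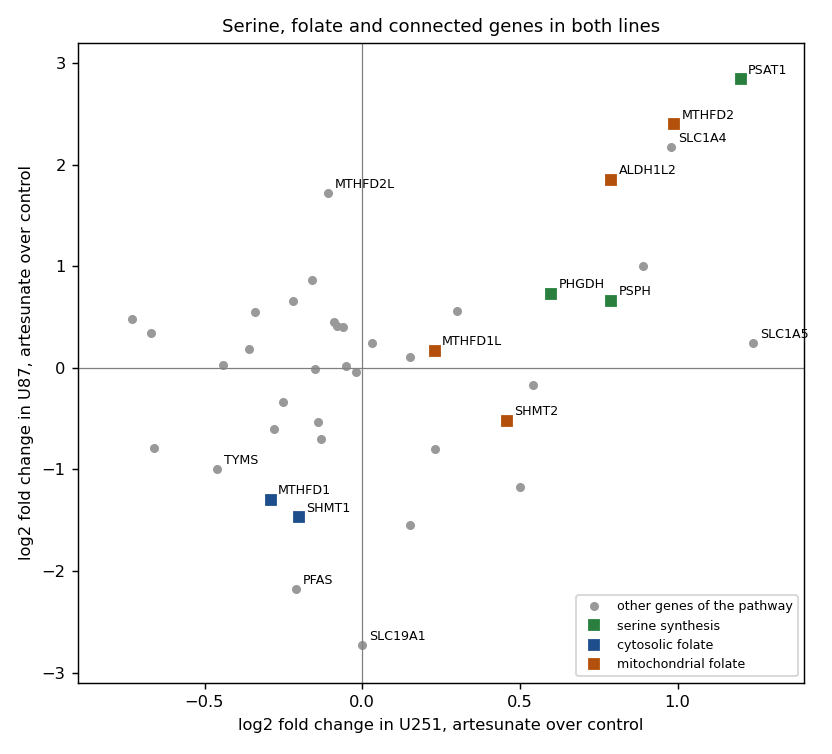
Log2 fold change of artesunate over control in U251 (horizontal) and U87 (vertical) for the 9 enzymes (squares, by role) and 32 other genes of the pathway (grey points, those above 3 summed counts in at least 1 group of each line). PSAT1, MTHFD2, ALDH1L2 and SLC1A4 lie at the upper right, and SHMT1 and MTHFD1 lie low with SLC19A1 and PFAS.

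For the most abundant enzyme of each role by FPKM, the protein-coding genes with the most similar pattern over the 12 libraries were listed from 13586 genes, by Pearson's r of log2 CPM, as a description. For PSAT1 these were CARS (r = 0.994), PNRC1 (0.989) and CTH (0.989). MTHFD1 was most like CPA4 (0.986), PA2G4 (0.981) and BANF1 (0.976). MTHFD2 was most like GARS (0.993), BTG1 (0.990) and AKR1C3 (0.990). The 12 points share 4 groups, so such values mostly order genes by their group means.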

How the data were processed

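Per the series text and the submitters' processing notes, the authors used fastp for cleaning, HISAT2 2.1.0 for alignment (GRCh38, Ensembl 91 gene models), StringTie 1.3.3b for quantification, and TMM with edgeR 3.30.3 for group comparisons. How the whole-number counts were made is not given in the sources used here. The deposited table holds counts, not normalized per the file headers, and the authors' FPKM. Each deposited FPKM was the count over library total and a whole-number length, with no TMM factor in it (largest coefficient of variation of that length over libraries 0.00049% in 10018 genes). The 12 deposited columns of group means and comparisons were not used.

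The count model was fitted with edgeR 4.0.16 under R 4.3.3. Its filterByExpr (minimum count 10, total 15) left 17150 of 35237 genes with a count. TMM factors were used, with 1 quasi-likelihood model of 4 group means over all 12 libraries (common biological coefficient of variation 0.183). A standard error is the size of the log2 fold change divided by the root of the F statistic. Alternatives were total counts, no filter, a block for replicate number, a correction for GC content and length (GENCODE 29, 99.6% of tested genes, lowess span 0.3), DESeq2 1.42.0, limma 3.58.1 on log2(FPKM + 1 or 0.1), fits of 2 groups and leaving out each library. Simulated data were run through edgeR, with and without the block, and through limma on log2(CPM + 1), with results not reported here. The other alternatives, among them DESeq2, limma on FPKM and the correction, were not tested this way. The simulation had the same spread for all genes and no shift with GC content. Members and lists were chosen with earlier results of these data known. Named genes were all 9 enzymes, the 3 called pathway genes with the largest change in each line, 7 pathway genes whatever their result (2 are not reported here), and the 3 most similar genes of the most abundant enzyme of each role. Libraries of a group correlated at 0.972 to 0.987 and none was deposited again. Gene copies (14 pseudogenes) held 211 counts, at most 0.265% of their parent's.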

Additional observations from a re-analysis of the deposited data

Results flagged for a closer look

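The effect of artesunate differed between U251 and U87, by edgeR's test of the interaction, for 5 of the 9 enzymes. It also differed for 7 of the named other genes of the pathway besides SRR, some of them named for the size of their change. Of all genes tested 49.4% were called, and of the 33 other pathway genes 6 had the higher value in U251 and 10 in U87. Each line had its own dose, and line cannot be told apart from dose. As log2 fold change in U251 minus that in U87, the enzymes were at -1.64 (PSAT1), -1.42 (MTHFD2), 1.27 (SHMT1), 1.01 (MTHFD1) and 0.98 (SHMT2). Of these, the SHMT2 difference was lost after correction for GC content and length (0.13, adjusted p = 0.48).

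The other genes were SLC19A1 at 2.73, PFAS at 1.97, MTHFD2L at -1.83, SLC1A4 at -1.20, DHFR2 at -1.01, SLC1A5 at 1.00 and SLC25A32 at -0.46. SRR, named after its value was seen, was also called, at -0.47 (adjusted p = 0.035, edgeR). Its adjusted p ranged from 0.011 to 0.61 under the alternatives. After the same correction SLC1A5 was at -0.33 (adjusted p = 0.17), SLC25A32 at 0.29 (adjusted p = 0.13), DHFR2 at -0.38 (adjusted p = 0.22) and SLC1A4 at -0.97 (adjusted p = 0.065). SLC19A1 (1.03, adjusted p = 0.0093), PFAS (0.96, adjusted p = 0.0079) and MTHFD2L (-0.85, adjusted p = 0.0014) stayed past the threshold.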

How the results depend on the processing

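Of 981 fold changes of the 9 enzymes under the alternatives, 928 kept their direction and side of the threshold, 24 lost and 19 gained a call, and 10 changed sign. The cause of these changes was not tested. The replicate numbers did not pair the libraries (correlation of same-numbered deviations 0.041, 0 and 0.038 in U251 and 0.053, 0.05 and -0.009 in U87). With the replicate block, MTHFD1 in U251 lost its call (-0.29, adjusted p = 0.078), so 0 enzymes were lower there. Of the named pathway genes in U251 DHFR2 (adjusted p = 0.069) and SRR (0.099) lost their calls with the block, and TYMS gained one (-0.48, adjusted p = 0.046), so that 1 other pathway gene was lower. With block and correction DHFR2 was at 0.094, SRR at 0.18 and TYMS at 0.028. The counting depth limits ALDH1L2 in U251, at 13 to 36 counts a library.

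The number of genes called in U251 was 1431, and 864 with no filter, 2328 with DESeq2, 2154 with limma on log2(FPKM + 1), 2892 in a fit of 2 groups, and 652 to 2582 leaving out 1 library (2582 without U87 artesunate replicate 2). Enzymes called lower in U251 numbered 0 with no filter, 2 after the GC content and length correction, and 0 to 1 leaving out 1 library. Other pathway genes called lower there numbered 5 with total counts, 0 with no filter, 1 with block and correction, 6 with DESeq2, 4 with limma at either pseudocount, 5 in a fit of 2 groups and 0 to 5 leaving out 1 library. Other pathway genes called higher there numbered 1 with limma and no filter, and 1 to 2 leaving out 1 library. With block and correction 5 were higher in U87, with no share of all genes given beside it. The interaction, called for 8478 genes, was called for 5132 with the correction and 4460 with block and correction, and the pathway genes with the higher effect in U87, 10 of them, became 3 and 2.

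The GC content and length correction, with and without the block, turned the sign of SHMT2 in U87 (0.17 in both), of the MTHFD1L interaction (-0.21 in both), of MTHFD2 between controls (-0.03 in both) and of MTHFD1 between treated lines (0.02 in both). It also turned MTHFD2L (0.12, and 0.13 with the block), SLC25A32 (0.11 and 0.12) and SFXN1 (0.04 in both) in U251, SLC25A32 (-0.18 in both) and DHFR2 (-0.18 and -0.20) in U87, and the interactions of SLC25A32 (0.29 and 0.30) and SLC1A5 (-0.33 and -0.31). With no filter SFXN1 in U251 was at 0.01. Leaving out 1 library turned the PHGDH interaction (-0.28 to 0.14, highest without U87 artesunate replicate 2), MTHFD1 between treated lines (-0.11 to 0.0034, highest without U87 artesunate replicate 3), SFXN1 in U251 (-0.05 to 0.0017, highest without U251 control replicate 1), SLC25A32 in U251 (-0.14 to 0.08, above 0 without U251 control replicate 3 or U251 artesunate replicate 2) and SLC1A5 in U87 (-0.19 to 0.46, lowest without U87 artesunate replicate 2).

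The compartment levels moved with the length scale; counts per kilobase were chosen after seeing the data. In the order U251 control, U251 artesunate, U87 control, U87 artesunate, the SHMT2 to SHMT1 ratio was 1.17, 1.86, 3.26 and 6.26 by counts, 1.76, 2.79, 4.90 and 9.42 per kilobase of merged exons, and 0.945, 1.5, 2.63 and 5.05 per kilobase of the longest transcript. The mitochondrial share was 53.0, 68.2, 46.2 and 81.5% by counts, 66.9, 79.3, 61.4 and 89.1% per kilobase of merged exons, and 59.4, 72.8, 57.5 and 86.4% per kilobase of the longest transcript. Treated cells had the higher value in both lines on every scale.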
